A study of Columba livia with 6 samples.

Results

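The catecholamine and chromogranin genes encode enzymes that make the amines dopamine and noradrenaline, and proteins of the granules that store such amines. Of 6 gene symbols, TH, DDC, DBH, CHGA, CHGB and SCG2, 5 were found among the gene names of the 34346 loci in the pigeon ovary table. DDC was not matched to a locus by its symbol and is not analysed here under that name. The 5 loci were taken by symbol, and the set was proposed with their levels in these ovaries known, so their levels are described and not tested.

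Ovaries of 6 female domestic pigeons (Columba livia), all 2 years old, sexually mature and untreated, were sequenced singly after removal of ribosomal RNA. HP1, HP2 and HP3 came from birds with high egg production, and LP4, LP5 and LP6 from birds with low egg production, numbered as in the sample titles. All 6 birds were kept in the same pigeonry and were chosen for the extremes of their laying record, so each group is 3 birds at 1 end of that record. The total counts of the libraries were between 97875183 and 108669967. Levels are given as CPM, the count scaled to the library total and its TMM factor. The 8 ovary markers found, among them GDF9 of oocytes and AMH of granulosa cells, summed to 729.2 to 1385 CPM in HP and 973.9 to 1227 CPM in LP ovaries, and INHA, an inhibin subunit, had only 18 to 107 counts.

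In vertebrates, catecholamines are made from tyrosine in chromaffin cells of the adrenal gland, in sympathetic neurons and in some neurons of the brain. Tyrosine hydroxylase (TH) makes L-DOPA, an aromatic amino acid decarboxylase (DDC) turns it into dopamine, dopamine beta-hydroxylase (DBH) makes noradrenaline inside the storage vesicle, and PNMT makes adrenaline. Granins such as chromogranin A (CHGA), chromogranin B (CHGB) and secretogranin II (SCG2) are acidic proteins packed with the amines into dense-core granules. The ovary receives sympathetic nerve fibres.

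CHGA and DBH were high in 1 ovary of each group. Because the tissue was taken whole, fewer cells of a type and less RNA per cell cannot be told apart in these values. DBH had 124 counts in HP1, 118 in HP2 and 923 in HP3, and 132 in LP4, 497 in LP5 and 140 in LP6. HP3 was the highest and LP5 was next, and the other 4 ovaries lay close together, so the groups overlapped. As levels, DBH was at 1.13 CPM in HP1, 1.17 in HP2 and 8.81 in HP3, and at 1.36 CPM in LP4, 5.02 in LP5 and 1.31 in LP6. HP3 was 7.53 times the next HP ovary (95% interval 6.21 to 9.20, counting error only), and LP5 was 3.68 times the higher of the other LP ovaries (3.03 to 4.49). These and the later counting intervals take each count as independent and may be too narrow. Among the lower 4 ovaries, in the order LP4, LP6, HP2 and HP1, no neighbours differed beyond counting error. The DBH locus lies on the plus strand of scaffold NW_004973847.1 of Cliv_1.0, from 1097914 to 1112291.

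The locus that holds TH, the enzyme of the first and rate-limiting step, had counts in every ovary. The locus had 3560 counts in HP1, 2565 in HP2 and 5699 in HP3, and 2169 in LP4, 4676 in LP5 and 2724 in LP6. The order was again HP3 and then LP5, and the highest ovary was 2.43 times the lowest, beside 7.82 times for DBH. The levels ran from 22.4 CPM in LP4 to 54.4 CPM in HP3. HP3 was 1.68 times HP1 (1.61 to 1.75), and LP5 was 1.86 times LP6 (1.77 to 1.95). HP2 and LP6 did not differ beyond counting error, with a ratio interval of 0.948 to 1.06. This locus is named for both INS, the insulin gene, and TH, holds 4 reference transcripts, and spans 1163422 to 1201281 on the minus strand of scaffold NW_004973198.1, so reads of INS and TH were not separated. It overlaps TSPAN32 on the other strand, which had 255 to 898 counts, and it is not stated whether counting used the strand.

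The decarboxylase step was looked at through protein descriptions, since the symbol DDC gave no locus. These loci were chosen after their values were seen and are not among the 5. LOC102084038, described as an aromatic-L-amino-acid decarboxylase, had 1760 counts in HP1, 823 in HP2 and 298 in HP3, and 606 in LP4, 917 in LP5 and 827 in LP6. It was lowest in HP3, the ovary in which DBH and the locus of INS and TH were highest. The other locus with this description, which also holds FIGNL1, had 921, 972 and 1293 counts in the HP ovaries and 747, 1078 and 909 in the LP ovaries, and was highest in HP3 and next in LP5. A separate locus described as a tyrosine 3-monooxygenase, LOC102087146, had at most 23 counts in an ovary.

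CHGA, a widely used marker of neuroendocrine cells, had the largest ratio of the highest to the lowest ovary among the 5 loci, 13.8. It had 134 counts in HP1, 178 in HP2 and 1764 in HP3, and 223 in LP4, 870 in LP5 and 244 in LP6. HP3 stood highest and LP5 next, with the other 4 ovaries well below both, and the groups overlapped. In CPM these levels were 1.22 in HP1, 1.77 in HP2 and 16.8 in HP3, and 2.303 in LP4, 8.78 in LP5 and 2.28 in LP6. HP3 was 9.54 times the next HP ovary (8.17 to 11.2) and LP5 was 3.81 times the higher of the other LP ovaries (3.29 to 4.44). LP4 and LP6 did not differ beyond counting error, and HP3 was 1.92 times LP5 (1.77 to 2.08). The locus is on the minus strand of scaffold NW_004973385.1, from 7814224 to 7827731, and the overlapping LOC110361334 on the other strand had 0 to 4 counts.

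SCG2, the precursor of the peptide secretoneurin, had 314 counts in HP1, 162 in HP2 and 562 in HP3, and 240 in LP4, 367 in LP5 and 211 in LP6. HP3 and LP5 were again the highest, and HP3 was 1.88 times HP1 (1.63 to 2.17). HP1 and LP4 did not differ beyond counting error, nor did LP6 and HP2. The locus also carries LOC110355140, whose reads were not separated from those of SCG2, and lies on the plus strand of scaffold NW_004973874.1, from 861152 to 898013.

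CHGB did not share the second place. It had 5154 counts in HP1, 4587 in HP2 and 11885 in HP3, and 6339 in LP4, 5767 in LP5 and 5778 in LP6. HP3 was 2.42 times the next HP ovary (2.34 to 2.50), while LP5 was 0.889 times LP4 (0.858 to 0.922). The 3 LP ovaries, at 53.9 to 65.5 CPM, lay between HP3 at 113.5 CPM and the other HP ovaries at 45.5 and 46.9 CPM. The locus holds CUNH20orf196 as well, whose reads were not separated from those of CHGB, and 9 transcripts, from 976129 to 1053196 on the minus strand of scaffold NW_004973294.1. Because the loci differ in length and several hold other genes, levels were not compared between genes.

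**Figure D1:**
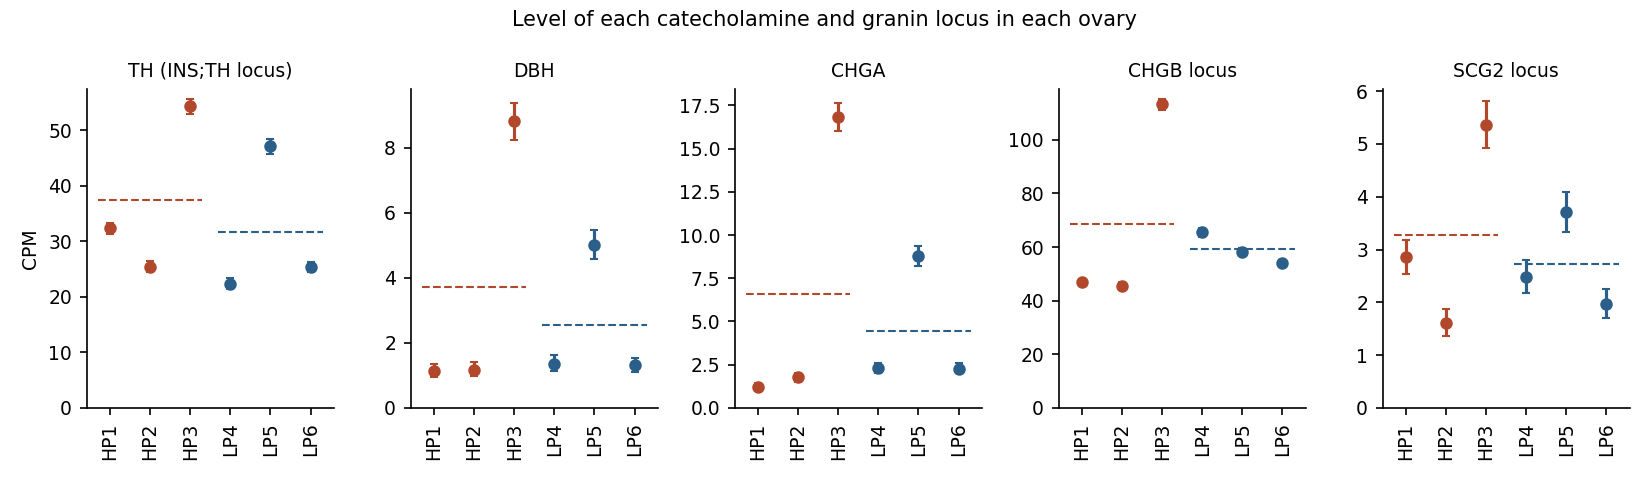
Level of each of the 5 loci in each ovary, in CPM on linear axes from 0, with each axis scaled to its gene. Points are single ovaries (red HP, blue LP), and dashed lines are group means (n = 3). Bars are 95% Poisson intervals for counting error, which take each count as independent and may be too narrow. HP3 was highest in all 5 panels, and LP5 was next in 4 of them but not for CHGB.

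The question put to these genes by the design is whether they differ between ovaries of high and low egg production. None of the 5 met the limits used for a call (unadjusted p under 0.05 in edgeR's quasi-likelihood fit and a group mean FPKM ratio of at least 1 on the log2 scale). Over all 28274 tested loci 3.11% met them, and 0.0106% had an adjusted p under 0.05, none of them among the 5. All 5 had passed the filter on low values, set at a mean FPKM of 0.1. The groups overlapped for all 5 loci, and they did not overlap for 14.6% of the tested loci. Nothing is read from these shares and no p-value is given for the 5, since they were proposed with this contrast known.

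The fitted HP minus LP difference was 0.57 ± 1.08 (log2, SE, n = 3 and 3) for CHGA, and the group levels were 6.61 ± 8.87 CPM (SD, n = 3) in HP and 4.46 ± 3.75 CPM in LP. For DBH the difference was 0.53 ± 0.96, with 3.70 ± 4.43 CPM in HP and 2.56 ± 2.13 CPM in LP. The SD of the HP group was above its mean for both genes, so the difference was smaller than the spread within a group. For TH the difference was 0.24 ± 0.38, for SCG2 0.27 ± 0.48 and for CHGB 0.21 ± 0.36. All 5 differences were positive and smaller than their SE.

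The sign of these differences rested on HP3. Without HP3, all 5 turned negative, to -1.58 for CHGA, -1.16 for DBH, -0.36 for CHGB, -0.28 for SCG2 and -0.13 for TH. Without LP5, all 5 were positive, with 1.53 for CHGA and 1.47 for DBH. HP3 was the highest ovary for all 5, so leaving it out was bound to lower them. LP5 was the highest LP ovary for 4 of the 5, so leaving it out was bound to raise those 4. With both left out, a setting added after the values were seen, CHGA was at -0.62, CHGB at -0.37, DBH at -0.22, SCG2 at 0.01 and TH at 0.27, and 2 ovaries a group remained.

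**Figure D2:**
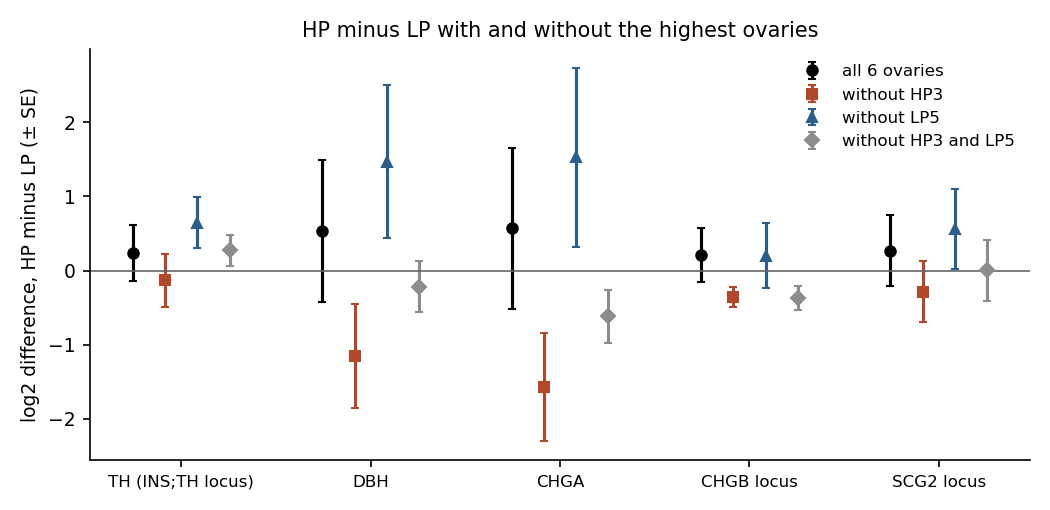
HP minus LP difference of the 5 loci on the log2 scale (fitted value, bars ± SE) with all 6 ovaries, without HP3, without LP5 and without both. All 5 black points are above 0 and all 5 red points, without HP3, are below it, with CHGA moving from 0.57 to -1.58.

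HP3 and LP5 were the highest ovaries for 4 of the 5 loci. These were the highest ovaries, in either order, for 5.40% of all tested loci. This pair was noticed after the values were seen.

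The other genes of the pathways came from 5 lists of 70 symbols, of which 54 were found. They gave 52 tested loci outside the 5. None of the 52 met the limits on p and fold as higher in HP ovaries, beside 2.09% of all tested loci, and 1 met them as lower, beside 1.02%. The difference was positive for 34 of the 52. In edgeR 6 had an unadjusted p under 0.05, beside 2330 of all 28274 tested loci, and 0 an adjusted p under 0.05. In limma the 52 gave 4 and 0, and in DESeq2 7 and 1, the last being ADRA1D. The share of all loci with an unadjusted p under 0.05 is not given for limma or DESeq2, so nothing is read from the 4 and the 7. Over all 28274 tested loci, 6 had an adjusted p under 0.05 in limma and 385 in DESeq2. The median difference of the 52 was 0.12 on the log2 scale, beside -0.01 for all loci. HP3 and LP5 were the highest ovaries, in either order, in 15 of the 52 (28.8%), beside the 5.40% given above.

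In the synthesis and storage list, PNMT, which makes adrenaline, was highest in HP3 and next in LP5, as CHGA was. PNMT had 0 counts in HP1, 6 in HP2 and 243 in HP3, and 0 in LP4, 101 in LP5 and 15 in LP6. A count of 0 allows up to 3 counts if counts are independent, and the ovaries HP3 and LP5 stood far above the other 4. Its difference between the groups was 1.04 ± 2.06 (adjusted p = 0.913, edgeR's quasi-likelihood test), and each group held 1 high ovary. SLC18A1, a vesicular monoamine transporter of endocrine cells, had 30, 52 and 400 counts in the HP ovaries and 72, 146 and 96 in the LP ovaries. SLC18A2, the transporter of monoamine neurons, differed in order, with 3954, 9960 and 5984 counts in HP and 3986, 3091 and 3641 in LP, and was highest in HP2. Its difference was 0.85 ± 0.35 (adjusted p = 0.603, edgeR) and did not reach the fold limit.

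GCH1, PTS, SPR, QDPR and PCBD1 make or recycle tetrahydrobiopterin, the cofactor of TH. None met the limits. PCBD1 had 3239, 3939 and 3354 counts in HP and 2775, 2159 and 2534 in LP, groups that did not overlap, with a difference of 0.44 ± 0.17 (adjusted p = 0.595, edgeR). Among loci chosen by description after their values were seen, the noradrenaline transporter LOC102091262 had 4362, 2661 and 5441 counts in HP and 3781, 7788 and 4922 in LP. It was highest in LP5 and next in HP3. Amine oxidase B, LOC102088179, was highest in the same pair, with 1345 counts in LP5 and 1047 in HP3. Amine oxidase A, LOC102088495, was highest in LP5, at 133.5 CPM, and lowest in HP3 and LP6, at 70.8 and 71.1 CPM.

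In the granin and granule list, 13 tested loci lay outside the 5 and none met the limits. SCG3, a granin that binds CHGA, had 533, 434 and 826 counts in HP and 433, 695 and 443 in LP, with HP3 and LP5 highest. SYT4, a synaptotagmin of secretory vesicles, had 0, 14 and 396 counts in HP and 0, 169 and 27 in LP. SNAP25, a fusion protein of neurons and endocrine cells, was below the filter, with 10, 0 and 168 counts in HP and 2, 128 and 4 in LP. SYT4 and SNAP25 thus had most of their counts in HP3 and LP5. The processing enzymes PCSK1, PCSK2, CPE and PAM did not have HP3 and LP5 highest, and PCSK1 had 324, 139 and 175 counts in HP and 170, 302 and 285 in LP. PTPRN and PTPRN2, membrane proteins of dense-core granules, had differences of -0.57 ± 0.23 (adjusted p = 0.595) and 0.93 ± 0.34 (adjusted p = 0.586) in the same edgeR fit.

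**Figure D3:**
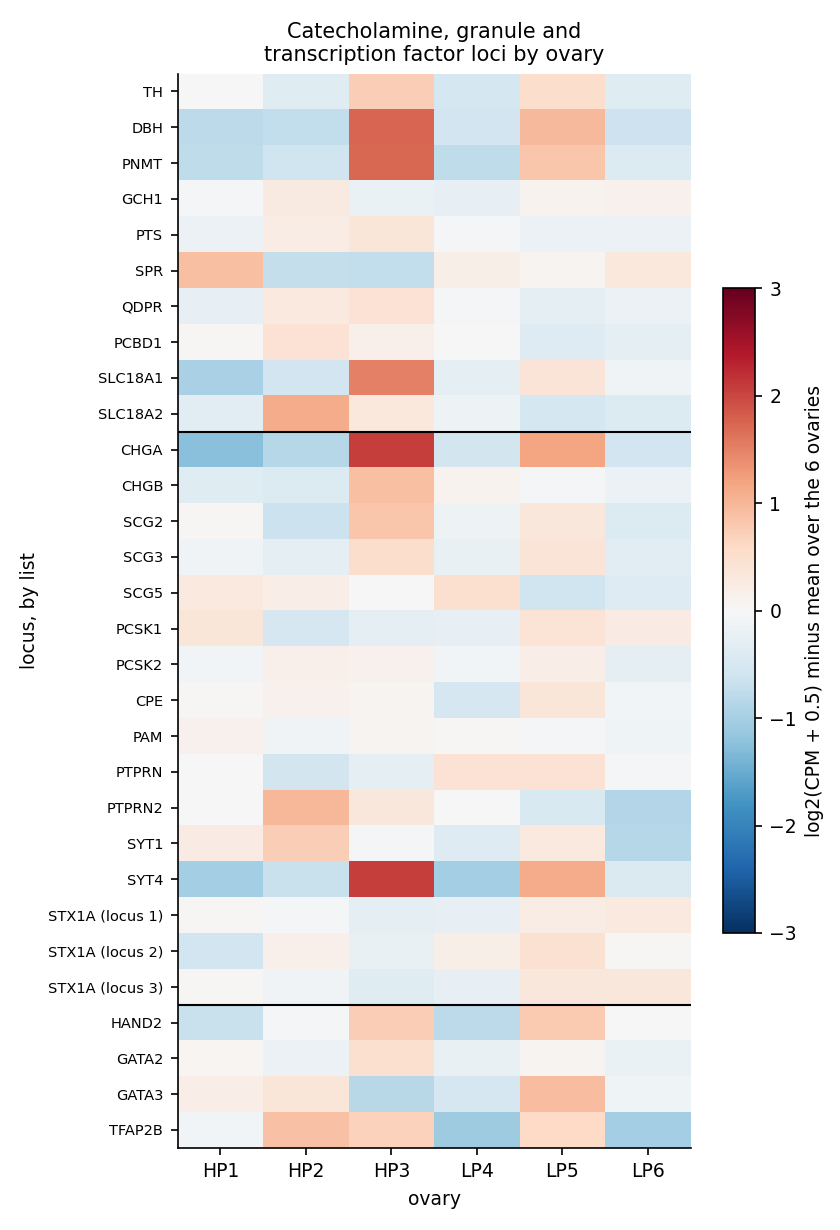
Plotted are 30 tested loci of the synthesis and storage list (top), the granin and granule list (middle) and the transcription factor list (bottom) in the 6 ovaries. Colour is log2(CPM + 0.5) minus the mean of the locus over the ovaries, red above and blue below. CHGA, DBH, PNMT, SLC18A1 and SYT4 are red in HP3 and LP5, whereas SLC18A2 is reddest in HP2.

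In the receptor list, 17 loci were tested and 1 met the limits. ADRA1D, an alpha-1 adrenergic receptor, had 109 counts in HP1, 221 in HP2 and 185 in HP3, and 927 in LP4, 311 in LP5 and 432 in LP6. Every HP ovary was below every LP ovary. The HP minus LP difference was -1.76 ± 0.51 (log2, SE, adjusted p = 0.573, edgeR's quasi-likelihood test), past the unadjusted limit and not the adjusted one. DESeq2 gave ADRA1D an adjusted p of 0.0496, in a fit with 385 loci under 0.05, beside 3 in edgeR. The highest LP ovary was LP4, and without it the difference was -1.12 and still met the limits. The locus spans 863391 to 912776 on scaffold NW_004973397.1, and a further, shorter locus named ADRA1D, from 913060 to 913558, had a difference of 0.21 ± 0.46 with 34 to 78 counts. The dopamine receptor DRD5 had 78, 186 and 367 counts in HP and 23, 326 and 121 in LP, with HP3 and LP5 highest.

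**Figure D4:**
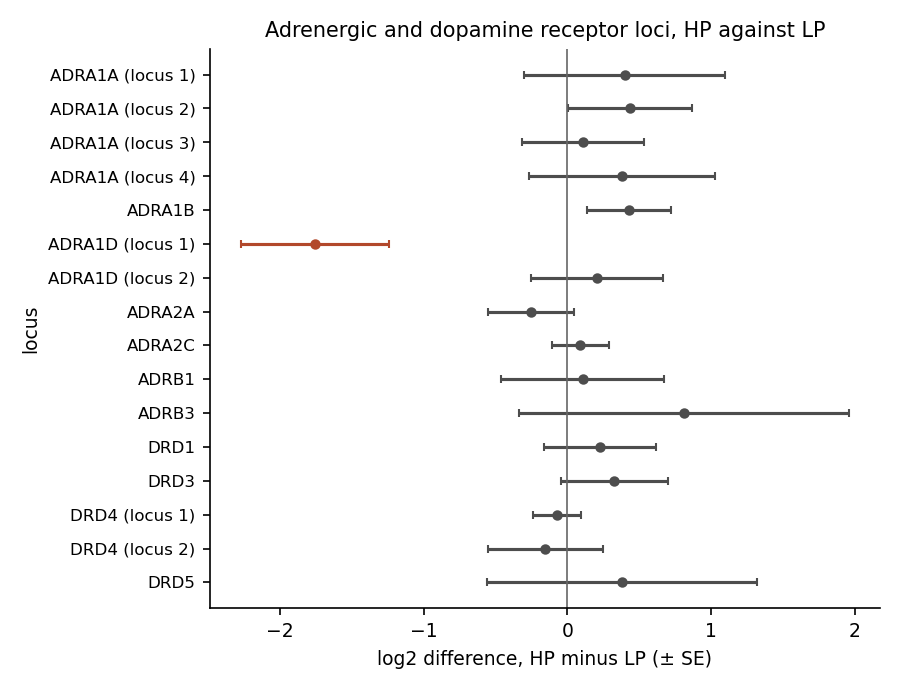
HP minus LP difference (log2, fitted value, bars ± SE) of 16 of the 17 tested receptor loci. The locus in red, ADRA1D at -1.76, was the only one of the 17 to meet the limits on p and fold, without passing the adjusted p, and the others plotted lay between -0.25 and 0.81.

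In the transcription factor list, none of 6 tested loci met the limits. HAND2, a factor of the sympathetic and chromaffin lineage, had 214, 326 and 631 counts in HP and 171, 613 and 357 in LP, with HP3 and LP5 highest. GATA3 had 364 counts in HP3, its lowest ovary, and 1294 in LP5, its highest. ISL1 was below the filter, with 82 counts in HP3, 125 in LP5 and at most 11 in the other ovaries. Of the 7 neuropeptide loci, 2 had HP3 and LP5 highest, TAC1 and SST. TAC1 had 56 counts in HP3, 44 in LP5 and at most 6 in the rest. SST had 64, 68 and 599 in HP and 238, 364 and 40 in LP. PENK, the enkephalin precursor, had 1386 to 1991 counts across the 6 ovaries. NPY had 162, 96 and 165 counts in HP and 144, 98 and 169 in LP. ADM was lowest in HP3, at 8.72 CPM. The locus of GAL also holds PPP6R3, whose reads were not separated from those of GAL, and was highest in LP6, at 104.2 CPM.

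The markers of other cell types were read beside these values. Of 14 tested loci of neuron markers, 5 had HP3 and LP5 highest: STMN2, ELAVL4, CHRNA3, CHRNB4 and RET. STMN2, a protein of growing axons, had 34, 22 and 586 counts in HP and 17, 736 and 37 in LP at that locus. CHRNA3, a subunit of the ganglionic nicotinic receptor, had 62, 55 and 644 counts in HP and 13, 212 and 68 in LP. For RET, LP5 at 4.51 CPM was close to LP6 at 4.09 CPM. The rest of the 14 loci did not have this pair highest. Among them, NEFL was lowest in LP5, at 120.1 CPM, and a further STMN2 locus was highest in HP2, at 1.28 CPM. TUBB3 was at 9.50 to 14.94 CPM in HP and 16.95 to 23.1 CPM in LP. The summed level of the 13 neuron markers found was 719.0 to 1033 CPM in HP and 706.8 to 881.7 CPM in LP and was highest in HP3 and lowest in LP5. UCHL1, at 422.5 to 654.0 CPM, made up most of that sum. CHRNB4 and GAP43 were at 0 in LP4.

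Of 13 adrenal cortex markers, 4 were found, and their sum was 132.8 to 155.5 CPM in HP and 126.1 to 164.6 CPM in LP. HP3 and LP5 were highest for 2 of the 4, MC2R and STAR. MC2R, the corticotropin receptor, had 8, 0 and 73 counts in HP and 0, 51 and 12 in LP, with HP3 and LP5 highest and 0 counts in HP2 and LP4. STAR, the cholesterol carrier that the ovary also uses, had 779, 606 and 1108 counts in HP and 640, 1435 and 1133 in LP. As levels, STAR was at 14.49 CPM in LP5 and at 10.58 CPM in both HP3 and LP6. Its second place was thus a near tie between HP3 and LP6. The locus of NR5A1, a factor of steroid-making cells, was lowest in HP3, at 23.7 CPM, and FDX1, an electron carrier of steroid synthesis, was highest in HP3, at 107.7 CPM, and lowest in LP5, at 75.1 CPM. By description and after their values were seen, the side-chain cleavage enzyme LOC102096337 and the 17-alpha-hydroxylase LOC102093575 were added. LOC102096337 had 829, 638 and 1784 counts in HP and 95, 1127 and 1720 in LP. LOC102093575 had 6776, 6046 and 1542 counts in HP and 1416, 7303 and 10647 in LP. Glial markers summed to 78.5 to 149.5 CPM in HP and 93.7 to 135.4 CPM in LP, with HP3 and LP5 highest for 1 of 8 loci. Gut endocrine and serotonin markers summed to 71.8 to 104.4 CPM in HP and 54.4 to 69.6 CPM in LP. Most of that sum came from TPH1, at 28.2 to 64.2 CPM, and TPH2, at 25.4 to 31.9 CPM in HP and 18.6 to 21.6 CPM in LP. HP3 and LP5 were highest for 2 of the 6 tested loci of this list, a locus of SLC6A4 and CCK. The gut endocrine markers GCG, GHRL and CCK had only 3 to 26 counts in an ovary. The part of these cell types in the levels of CHGA and DBH was not tested.

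HP2 stood apart for another set of markers. The 8 kidney markers found summed to 611.9 CPM in HP2 and to 73.5 to 115.9 CPM in the other 5 ovaries, and HP2 was highest for 8 of 9 loci. SLC22A7, a kidney transporter, was at 0 in HP1, HP3, LP4 and LP5, had 4 counts in LP6 and 619 in HP2. CHGA, DBH, TH, CHGB and SCG2 were not highest in HP2, and 3 of 9 loci of the synthesis list outside the 5 were, SLC18A2 among them. The others were GCH1, at 25.1 CPM in HP2 and 22.7 CPM in LP6, and PCBD1, at 39.1 CPM in HP2 and 32.0 CPM in HP3. The share of all tested loci highest in HP2 is not given, so nothing is read from the 3 of 9.

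The named loci most alike to each gene were taken by Pearson's r of log2(CPM + 0.5) over the 6 ovaries, among the 16838 named loci whose mean FPKM reached 1. They were picked as the highest of many and share the libraries, so r is a description. For DBH the closest were FAIM2 (r = 0.997), SYT4, DCLK1, the locus of HTR6, LOC102094788 and MINOS1, and CPQ. For CHGA they were FAIM2 (r = 0.995), NHEJ1, SYT4, LOC110355671 and the same HTR6 locus. FAIM2, a gene active in neurons, had 269, 268 and 800 counts in HP and 282, 591 and 302 in LP. DCLK1, a microtubule-binding kinase, had 86, 28 and 982 counts in HP and 48, 498 and 54 in LP, and its highest ovary was 33.7 times its lowest. Likeness by r takes no account of the size of a change. The highest ovary was 3.12 times the lowest for FAIM2, 1.89 for NHEJ1, 1.65 for CPQ and 1.22 for the HTR6 locus.

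For TH the closest were NHLRC4 (r = 0.994), LOC110355633, LOC102086317, TMEM38A and the granin SCG3 (r = 0.969). For SCG2 they were RGS22 (r = 0.990), LOC110362110, LOC110358894, ATP5S and LOC102098145. For CHGB they were LOC110358479 (r = 0.986), THOC2, NRBP1, LOC110362116 and the locus of LRRC31 and LRRC34, which was highest in HP3 and next in LP4, as CHGB was. Among these loci of TH, SCG2 and CHGB, the highest ovary was from 1.12 (THOC2) to 3.56 (NHLRC4) times the lowest. CHGB and CHGA thus had no locus in common among their closest 5, and CHGA and DBH shared FAIM2, SYT4 and the HTR6 locus.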

How the data were processed

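Ribosomal RNA-depleted libraries with a dUTP-labelled second strand were made from 6 ovaries and sequenced in pairs. Per the labels and methods, the authors trimmed reads with cutadapt 1.9, checked them with FastQC 0.10.1, mapped them with Bowtie2 and HISAT2 2.0.4 to Cliv_1.0 and assembled and merged transcripts with StringTie 1.3.4. The authors deposited whole-number counts and FPKM per locus, of which 0 value columns were left unused. How the counts were made is not given in the sources used here, and their totals exceed the mapped reads the study gives. The counts may therefore not be independent of each other. The counting intervals take them as independent, so they may be too narrow even for counting error, and they leave out the spread between birds. Nothing says that a library was split, so each sample was taken as 1 bird.

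The 28274 loci whose mean FPKM reached 0.1 were fitted on their counts with edgeR 4.0.16 (R 4.3.3, TMM, quasi-likelihood test, two-sided, Benjamini-Hochberg adjustment over these loci), and 6072 loci were left out. The limits were an unadjusted p under 0.05 and group mean FPKM values that differed by 1 or more on the log2 scale. An exact permutation test of single values could not reach a p below 0.1 in a design of 3 against 3. Alternatives were DESeq2 1.42.0 size factors, DESeq2, limma 3.58.1 on log2(FPKM + 1), other filters and leaving out ovaries. Fits were tested on simulated data. Likeness used a pseudocount of 0.5.

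The genes, lists and limits were chosen with earlier results of these data known. The genes named were the 6 symbols, genes of the pathway lists meeting the limits, markers at 0, and the 5 loci most alike to each gene; others were picked after their values were seen. RefSeq symbols matched 5 of the 6. Sequences were not used here, and a few listed genes are not reported here.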

Additional observations from a re-analysis of the deposited data

How the results depend on the processing

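No paired analysis was made, because the ovaries came from separate birds and nothing pairs an HP bird with an LP bird. The HP minus LP log2 difference of DBH ranged from -1.16 to 1.47 when 1 ovary was left out, that of CHGA from -1.58 to 1.53, that of CHGB from -0.36 to 0.44, that of TH from -0.13 to 0.65 and that of SCG2 from -0.28 to 0.60, and for each gene the only negative value was without HP3. Under DESeq2 size factors, DESeq2, limma and both other filters, all 5 stayed positive except CHGA in limma (-0.01). With HP3 and LP5 both left out, chosen after seeing the data, CHGB was at -0.37. The pathway loci meeting the limits numbered 1 to 3 leaving out 1 ovary and 3 with both left out. ADRA1D met them in every setting run (-0.83 in limma to -2.09 with both left out). The others were SLC18A2 and PTPRN2 without HP1, PTPRN2 without HP3 or LP4, SYT1 and TFAP2B without LP5, and SYT1 and TFAP2B with both left out. Over all loci, 880 met the limits, 444 with a mean FPKM of at least 1, and 702 to 1058 leaving out 1 ovary. At an adjusted p under 0.05 there were 3 loci in edgeR, 385 in DESeq2, 6 in limma, 0 to 7 leaving out 1 ovary (0 without LP6) and 0 with both left out. With 3 ovaries a group, precision was limited by the spread between birds, and the part of depth was not tested. LOC102087146, a locus of a few counts, was below the filter and was not fitted.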
